A study of Mus musculus with 18 samples.

Results

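The change from Day 0 to Day 2 of erythroid culture was measured in mouse fetal liver cells in which PCBP1 had been knocked down. The comparison holds 6 of the 18 RNA libraries of the series, 3 from Day 0 and 3 from Day 2, chosen by their labels, which name PCBP1 as the knockdown target, the day, and the short hairpin RNA (hairpins 1, 3 and 4 on each day). The cells were hematopoietic progenitors enriched from the livers of mouse embryos (strain CD-1, embryonic day 14.5), with CD71 antibody added to the enrichment, and were infected with a retrovirus that carried the hairpin, puromycin resistance and GFP. Day 0 cells had grown for 48 hours after infection in expansion medium with stem cell factor, dexamethasone (1 μM) and erythropoietin at 0.5 U/mL. Day 2 cells had then spent 2 more days in serum-containing differentiation medium with erythropoietin at 5 U/mL and without the other factors named. The control groups went through the same infection and media with a scrambled control (SCR-1 and SCR-2) or a luciferase hairpin (LUC-1), and a PCBP2 knockdown used hairpins numbered 1, 3 and 4, so that all 6 groups of the series held 3 libraries each.

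PCBP1 is a poly(C)-binding protein, an RNA-binding protein with KH domains that acts in splicing, mRNA stability and translation and that also delivers iron to ferritin as an iron chaperone. During terminal differentiation an erythroid progenitor leaves the influence of stem cell factor, divides a few more times, fills with globin and heme, builds the membrane skeleton, condenses its nucleus and clears its organelles. Differentiating erythroblasts also change the splicing of many transcripts, and much of their remaining RNA late in the process is globin mRNA.

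Each of the 6 libraries held between 28233193 and 33106385 estimated reads, at which depth 17500 genes were tested across all 18 libraries. Nothing in the labels states whether libraries of a group came from separate cultures or litters, so that p-values describe the spread between these libraries. Libraries of a knockdown group differ in hairpin, while the labels do not say whether SCR-1 and SCR-2 carried the same hairpin. On the first principal component (88.6% of the variance) every Day 0 library lay between -156 and -148 and every Day 2 library between 136 and 166. On the second (1.9%) the Day 2 LUC-1 control stood apart, at 74 against 4.94 and 13.9 for the scrambled controls and -32.1 to -26.2 for the PCBP1 libraries. Counts of genes called against the controls and the list values against them are therefore given with and without the LUC-1 libraries, and genes named there that lose their call without them are listed. All 7 erythroid markers examined (Gata1, Klf1, Epor, Slc4a1, Alas2, Hba-a1 and Hbb-bs) rose between the days and all 4 markers of early progenitors (Kit, Gata2, Myb and Cd34) fell, and every one had at least 41 reads in each of the 6 libraries.

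The level of the targeted transcript was examined before the other genes. Pcbp1 (ENSMUSG00000051695, GRCm38 chr6:86524492-86526321, minus strand) was measured at 14.1, 59.4 and 24.3 CPM under hairpins 1, 3 and 4 at Day 0 and at 15.6, 57.2 and 40.4 CPM at Day 2, where CPM, the usual depth-normalised read count, uses a library size scaled by the trimmed mean of M-values (TMM). The controls had a mean of 196 CPM at Day 0 and 268 CPM at Day 2. Hairpin 3 left the most Pcbp1 on both days, and the days overlapped. The log2 change of Pcbp1 between the days was 0.21 (SE 0.36, adjusted p = 0.597, edgeR's quasi-likelihood test), and it was -1.22 when libraries were scaled by their totals alone. The change passed the test with a block for the hairpin number (0.28 over 18 libraries, adjusted p = 0.0485, and 0.36 over the 6 alone, adjusted p = 0.0342, edgeR) and without the Day 0 library of hairpin 3 (0.95, adjusted p = 0.00829). Pcbp2, the closest relative, fell from 273, 285 and 293 CPM to 181, 215 and 193 CPM (log2 change -0.53, SE 0.09), and Hnrnpk, which encodes another KH-domain protein, fell by 0.32 (SE 0.07) on the log2 scale. Pcbp3 and Pcbp4 were at a few CPM at Day 0 and fell further, by 2.11 (SE 0.28) and 4.64 (SE 0.47).

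Most of the transcriptome changed between the days. At an adjusted p under 0.05, 7055 genes were higher at Day 2 (40.3% of the genes tested) and 7301 were lower (41.7%), and 14508 genes had an unadjusted p under 0.05. Changes of 4-fold or more that also passed the test were found in 3991 genes upwards (22.8%) and 2779 downwards (15.9%). Of the 14356 genes called, 14186 moved the same way under all 3 hairpins, and in 13996 the 3 values of one day lay entirely above those of the other. Of all tested genes 14572 (83.3%) did not overlap between the days, so that the lack of overlap given for genes below describes them and does not set them apart. The change under 1 hairpin differed from that under another by a median of 0.25 to 0.29 on the log2 scale over these genes. Because so large a share of genes called is the background here, counts in the gene groups below are read beside these percentages.

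The composition of the RNA also moved, and with it the scale on which a change is read. Globin transcripts took 0.3% to 0.4% of the estimated reads in the Day 0 libraries and 24.73% to 26.58% at Day 2, while mitochondrially encoded transcripts went from 3.18% to 3.26% down to 0.67% to 0.83%. The median change of all tested genes was -0.04 on the TMM scale, against which all changes in this text are given, and -1.47 when libraries were scaled by their totals. On that second scale 25.8% of the genes called were higher at Day 2, against 49.1% on the TMM scale, and among genes called at 4-fold the shares were 21.6% and 59%. In bulk RNA, fewer cells of a type and less RNA per cell cannot be told apart.

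**Figure D1:**
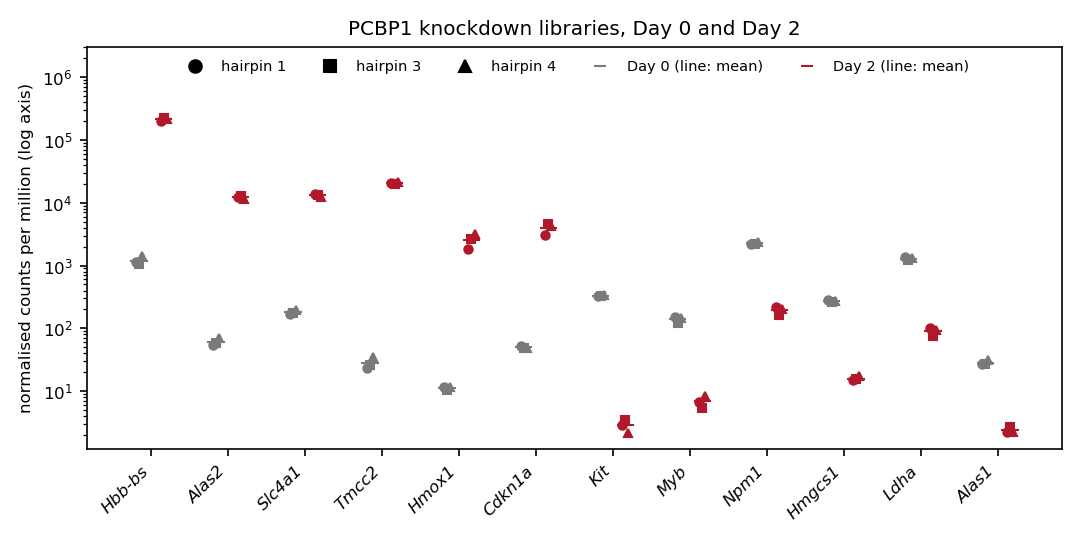
Normalised CPM (log axis) of 12 genes in each PCBP1 knockdown library, grey for Day 0 and red for Day 2, with a symbol for each hairpin and a short line at the mean. In all 12 genes the 3 libraries of a day lie close together and the days do not overlap, with Hbb-bs, Alas2, Slc4a1, Tmcc2, Hmox1 and Cdkn1a above their Day 0 level and Kit, Myb, Npm1, Hmgcs1, Ldha and Alas1 below it.

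Every globin gene that was tested rose (8 of 8, median log2 change 7.70). Hbb-bs, an adult beta-globin, was at 1140, 1050 and 1410 CPM under hairpins 1, 3 and 4 at Day 0 and at 203000, 221000 and 214000 CPM at Day 2 (log2 change 7.47, SE 0.16). Hbb-bt, the other adult beta-globin, rose by 7.77 (SE 0.16). Hba-a1 and Hba-a2, the adult alpha-globins, rose by 7.91 (SE 0.26) and 7.63 (SE 0.23), but these genes are near-identical copies, so the division of reads between them is uncertain. The embryonic genes rose from far lower levels. Hbb-bh1 went from 0.226, 0.0936 and 0.308 CPM to 77.9, 28.7 and 105 CPM, and Hbb-y from 0.301, 0.131 and 0.145 CPM to 6.46, 3.74 and 5.21 CPM. Hba-x, the embryonic zeta-globin, had 5 reads in the 3 Day 0 libraries together and 125 at Day 2. Hbb-bh2 had none at Day 0 and 46 reads at Day 2, at least 45.4-fold higher in CPM against a floor of 3 counts over the group. With that gene at its bound the median of the globins was 7.55. The same list had a median change of 7.57 in the controls.

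Of 20 erythroid transcription factors, 16 rose and 2 fell, with a median of 2.62 against -0.04 for all genes. Mxi1, a MAX-binding antagonist of MYC, went from 29.3, 26.6 and 26.6 CPM to 1140, 1240 and 1260 CPM (log2 change 5.46, SE 0.11, adjusted p = 2.34e-20, edgeR). Cbfa2t3, an ETO-family corepressor that sits in the GATA1-TAL1 complex, went from 17.4, 18.3 and 17.8 CPM to 723, 698 and 691 CPM (5.30, SE 0.11). Foxo3, a forkhead factor active in late erythroblasts, rose by 4.01 (SE 0.11), and Klf3, a repressive Krüppel-like factor, by 3.77 (SE 0.10). The factors that fell were Bcl11a, a repressor of embryonic and fetal globin genes, from 107, 113 and 107 CPM to 13.6, 12.7 and 17.1 CPM (-2.92, SE 0.14), and Ldb1, the bridging protein of the GATA1 complex, by 0.63 (SE 0.10). In each of these genes the days did not overlap.

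Most of the heme pathway rose. Of 15 heme synthesis genes, 13 rose and 1 fell (median 2.59). Alas2, the erythroid enzyme of the rate-limiting step, went from 54, 57.9 and 71.6 CPM to 12200, 12800 and 11300 CPM, a log2 change of 7.63 (SE 0.15, adjusted p = 2.63e-20, edgeR). Alas1, its housekeeping counterpart, moved the other way, from 26.7, 27.3 and 31.8 CPM to 2.23, 2.72 and 2.26 CPM (-3.57, SE 0.13). Slc25a39, a mitochondrial carrier for glutathione, rose by 5.26 (SE 0.13), and Abcb6, a porphyrin transporter, by 3.11 (SE 0.10). For the genes named, the Day 2 libraries lay entirely on one side of the Day 0 libraries.

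Iron handling was split, with 8 of 16 genes higher and 6 lower. Its median was 0.53 on the TMM scale and -0.90 on library totals, so no direction is given for the list. Hmox1, the heme-degrading oxygenase, went from 11.8, 10.4 and 11.8 CPM to 1810, 2660 and 3200 CPM (log2 change 7.82, SE 0.20). The ferritin chains rose as well: Ftl1 went from 519, 549 and 582 CPM to 15800, 22100 and 21500 CPM (5.17, SE 0.14), and Fth1 rose by 3.15 (SE 0.14). Ncoa4, the receptor that sends ferritin to the lysosome, rose by 3.53 (SE 0.15). Genes of iron sensing fell: Aco1, which encodes the iron regulatory protein IRP1, went from 186, 163 and 144 CPM to 11.9, 9.58 and 10.8 CPM (-3.94, SE 0.17), and Fbxl5, the iron-sensing ubiquitin ligase subunit that degrades IRP2, fell by 2.17 (SE 0.14). In none of these did the days overlap, and Hmox1 and Ftl1 were lowest under hairpin 1 at Day 2.

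Of 23 genes of the erythroid membrane and cytoskeleton, 20 rose and 2 fell (median 2.54). Slc4a1, the band 3 anion exchanger, went from 169, 175 and 196 CPM to 13600, 13300 and 12500 CPM (6.18, SE 0.14). Epb42 (protein 4.2) rose from 22.9, 21.7 and 27 CPM to 1520, 1560 and 1330 CPM (5.94, SE 0.14), and Epb41 (protein 4.1) by 4.85 (SE 0.10). The 2 that fell were Aqp1, the water channel, by 2.02 (SE 0.23) and Cd44, an adhesion receptor whose loss marks erythroblast maturation, by 1.54 (SE 0.13).

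Genes that act late in erythroblast maturation, in organelle clearance, ubiquitin conjugation, antioxidant defence and nuclear condensation, rose in 21 of 27 cases and fell in 6 (median 3.83). Xpo7, a nuclear exporter needed for chromatin condensation, went from 47.6, 47.1 and 58.3 CPM to 8540, 6330 and 6090 CPM (7.10, SE 0.15). The ubiquitin-conjugating enzymes Ube2h and Ube2o rose by 7.18 (SE 0.16) and 6.62 (SE 0.13), and Bpgm, which makes the hemoglobin effector 2,3-bisphosphoglycerate, by 6.99 (SE 0.13). Among the members that fell were Pklr, the erythroid pyruvate kinase gene (-2.40, SE 0.15), Hdac2, a histone deacetylase that acts in chromatin condensation (-2.47, SE 0.17), Car1, a carbonic anhydrase (-1.70, SE 0.22), and Fundc1, a mitophagy receptor (-1.97, SE 0.16). Kmt5a and Tbc1d22a fell by less, 0.61 (SE 0.10) and 0.46 (SE 0.10).

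The promoters of several of these genes are shown because the genes moved together and because GATA factors are known to control them. The letters AGATAA and TGATAA, a common form of the GATA motif, were searched on both strands in the 250 bases before each RefSeq start (GRCm38.p6), a search added after the data were seen. Each window below has 90 bases, 5′ to 3′ on the gene's strand, with the match in capitals, which reads as the reverse complement in the Alas2, Epb42 and Cbfa2t3 windows.
Alas2, chrX:150547286-150547375, plus strand: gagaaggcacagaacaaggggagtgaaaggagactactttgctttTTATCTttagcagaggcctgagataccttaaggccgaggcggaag
Epb42, chr2:121037038-121037127, minus strand: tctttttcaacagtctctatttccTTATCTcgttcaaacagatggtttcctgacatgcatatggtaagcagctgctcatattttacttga
Cbfa2t3, chr8:122699183-122699272, minus strand: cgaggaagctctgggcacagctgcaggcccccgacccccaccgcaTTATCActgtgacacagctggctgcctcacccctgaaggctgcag
Hbb-bs, chr7:103828089-103828178, minus strand: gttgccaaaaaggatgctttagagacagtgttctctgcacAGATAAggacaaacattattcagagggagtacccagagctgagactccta
Such letters were present for 1424 of 11539 tested genes with a promoter in the table (12.3%), for 14.9% of those that rose 4-fold or more and for 11.6% of those that fell as much. In the erythroid lists they were present for 7 of 16 membrane and cytoskeleton genes (43.8%), 7 of 18 erythroid transcription factors (38.9%, with 1.94 promoters per gene against 1.27 over all genes), 3 of 13 heme synthesis genes (23.1%) and 3 of 19 genes of terminal maturation (15.8%). A match describes these letters and not a bound site.

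Progenitor and early hematopoietic genes went down in 15 of 20 cases and up in 3 (median -1.35). Kit, the receptor for the stem cell factor of the expansion medium, went from 331, 333 and 335 CPM to 2.95, 3.46 and 2.16 CPM (log2 change -6.87, SE 0.14, adjusted p = 4.16e-20, edgeR). Myb, a factor of proliferating progenitors, fell by 4.35 (SE 0.17), Myc by 2.77 (SE 0.14) and Ikzf1, which encodes Ikaros, by 2.10 (SE 0.11). The 3 genes that rose were Nr3c1, the glucocorticoid receptor, from 78.9, 91.3 and 83.6 CPM to 226, 332 and 240 CPM (1.65, SE 0.12, but 0.22 and not called on library totals), Csf2rb, the shared chain of the IL-3, IL-5 and GM-CSF receptors (2.88, SE 0.21), and Lyl1, a helix-loop-helix factor (3.05, SE 0.16). Fkbp5, a glucocorticoid-induced cochaperone and not a member of the list, went from 206, 236 and 216 CPM to 6.79, 7.94 and 7.89 CPM (-4.86, SE 0.12). The groups were separate in all of these genes.

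Genes of DNA replication fell in 28 of 30 cases and rose in none (median -1.52), and the 4 named members fell by 1.13 to 2.12 (Mcm7, Gins4, Rfc2 and Rfc5). Genes of mitosis fell in 20 of 25 cases and rose in 3 (median -0.76). Bub1, a checkpoint kinase, went from 127, 128 and 131 CPM to 39.4, 25.2 and 35.4 CPM (-1.95, SE 0.15), and Bub1b, Ttk and Mad2l1 fell by 1.15 to 1.89. Ube2c, the ubiquitin-conjugating enzyme of the anaphase-promoting complex, moved the other way, from 57.5, 60.6 and 63.1 CPM to 271, 257 and 287 CPM (2.17, SE 0.14). Mki67, the proliferation marker, and Nusap1, a spindle protein, rose by 0.83 (SE 0.11) and 0.44 (SE 0.17) on the TMM scale, while on library totals their changes were -0.60 and -0.99. Hairpin 3 had the lowest Day 2 level of Bub1, Bub1b, Ttk, Mad2l1, Mki67 and Nusap1, and at Day 0 its levels of these genes lay within or above those of the other hairpins.

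Of 19 CDK inhibitors, cyclins and their partners, 9 rose and 10 fell. Cdkn1a (p21) went from 51.7, 49.6 and 49.1 CPM to 3040, 4640 and 4290 CPM (6.32, SE 0.17). Cdkn1b (p27) rose by 5.01 (SE 0.14), Cdkn2d (p19) by 3.10 (SE 0.13), Ccne2 (cyclin E2) by 3.66 (SE 0.21) and Rb1, the retinoblastoma gene, by 2.87 (SE 0.15). Cdk4 went from 205, 218 and 216 CPM to 35.3, 31.2 and 36.8 CPM (-2.63, SE 0.12), and Ccnd2 and Cdk6 fell by 2.48 (SE 0.18) and 2.11 (SE 0.15). Neither class moved as one, since the inhibitor gene Cdkn1c (p57) fell by 3.69 and the cyclin gene Ccnd3 rose by 1.64. No overlap between days was seen in the genes given with a standard error.

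The integrated stress response list, the genes downstream of eIF2α kinases and ATF4, was higher in 17 of 24 cases and lower in 6 (median 1.57), and on library totals it was split, with 11 higher, 11 lower and a median of 0.14. Ppp1r15a (GADD34), the regulatory subunit that reverses eIF2α phosphorylation, went from 59.3, 59.4 and 62 CPM to 6010, 6130 and 6220 CPM (6.67, SE 0.12, adjusted p = 5.76e-21, edgeR). Ddit3 (CHOP) rose by 5.91 (SE 0.15), Eif2ak1, the heme-regulated eIF2α kinase HRI, by 4.76 (SE 0.10) and Slc3a2, the heavy chain of amino acid exchangers, by 3.29 (SE 0.11). The members that fell are biosynthetic. Psat1, Psph and Phgdh, the serine synthesis enzymes, fell by 4.25 (SE 0.18), 3.57 (SE 0.15) and 3.01 (SE 0.16). Psat1 itself went from 339, 314 and 319 CPM to 18.2, 13.9 and 18.7 CPM. Shmt2, a one-carbon enzyme, fell by 1.66 (SE 0.11), Asns, the asparagine synthetase, from 399, 376 and 379 CPM to 167, 168 and 163 CPM (-1.21, SE 0.13), and Gars, the glycyl-tRNA synthetase, by 1.51 (SE 0.11).

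The promoters of Asns and Gars are printed because both genes fell although they carry letters of the composite ATF4-C/EBP element, TGATGNAA, searched on both strands of the same 250 bases. Both windows hold the last 90 bases before the RefSeq start (GRCm38.p6), 5′ to 3′ on the gene's strand, with the match in capitals, in Gars as the reverse complement.
Asns, chr6:7693210-7693299, minus strand: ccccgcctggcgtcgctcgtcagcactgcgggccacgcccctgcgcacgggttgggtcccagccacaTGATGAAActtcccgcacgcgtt
Gars, chr6:55037911-55038000, plus strand: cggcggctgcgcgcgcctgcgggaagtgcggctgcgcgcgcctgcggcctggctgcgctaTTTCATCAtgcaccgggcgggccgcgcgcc
These letters were found for 7 of 22 genes of the list (31.8%) and for 294 of the 11539 tested genes with a promoter (2.55%).

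Ribosome biogenesis fell in 24 of 25 cases, the median being -2.76. Npm1 (nucleophosmin) went from 2210, 2200 and 2390 CPM to 217, 165 and 201 CPM (-3.55, SE 0.13), and Rrp1b, Pes1 and Nop2, all nucleolar factors of ribosomal RNA processing, fell by 3.39 (SE 0.14), 2.89 (SE 0.11) and 2.76 (SE 0.10). Ubtf, the activator of RNA polymerase I, rose by 1.02 (SE 0.10) on the TMM scale and changed by -0.41 on library totals. The ribosomal protein genes moved less, with 37 of 76 lower, 14 higher and a median of -0.27, though on library totals 75 were lower and 1 higher (median -1.69). Rpl5, Rpl12, Rpl3 and Rpl7a fell by 1.75, 1.42, 1.28 and 1.04. Many ribosomal protein genes have processed copies, so how reads were divided among copies is uncertain. Rps12 was uneven between libraries, at 0, 0 and 0.145 CPM and then 59.4, 0.283 and 1.21 CPM in the knockdown, against 154, 240 and 84.1 CPM in the Day 0 controls. Whether copies took part in this was not tested.

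Glycolysis genes fell in 14 of 19 cases and rose in 3 (median -1.78). Ldha, lactate dehydrogenase A, went from 1350, 1210 and 1310 CPM to 103, 75.3 and 94.1 CPM (-3.83, SE 0.17). Hk2, an inducible hexokinase, fell by 4.95 (SE 0.16), Pgam1 by 2.82 (SE 0.10) and Tpi1 by 2.74 (SE 0.11). Beside Bpgm, the members that rose were Slc2a3, the glucose transporter GLUT3 (1.55, SE 0.14, but 0.13 and not called on library totals), and Gapdh, which rose by 0.41 (SE 0.11) on the TMM scale and changed by -1.02 on library totals. Nuclear-encoded genes of oxidative phosphorylation fell in 26 of 32 cases and rose in 4 (median -0.99). Ndufb5 of complex I fell by 2.52 (SE 0.12), Sdha of complex II by 1.67 (SE 0.09) and Atp5a1 of the ATP synthase by 1.64 (SE 0.08). The 13 mitochondrially encoded protein genes, counted after the data were seen, fell in 12 cases, with a median of -1.59 and a range of -2.34 to -0.04.

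Cholesterol synthesis fell in 20 of 22 cases, and its median of -2.98 was the lowest of the pathway lists. Hmgcs1, the synthase that makes HMG-CoA, went from 280, 261 and 269 CPM to 15, 15.6 and 17.2 CPM (-4.08, SE 0.10, adjusted p = 2.07e-19, edgeR). Lss, Cyp51, Msmo1 and Dhcr7, which act after squalene, fell by 4.08 (SE 0.12), 3.82 (SE 0.12), 3.91 (SE 0.13) and 4.97 (SE 0.17). Insig1, the sterol-sensing retention protein, went the other way on the TMM scale, from 83.4, 91.3 and 90.8 CPM to 148, 236 and 146 CPM (1.00, SE 0.15), but was at -0.44 on library totals.

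Histone genes, replication-dependent ones and a few variants, rose in 19 of 21 cases and fell in 1 (median 6.40, with 18 of them up 4-fold or more). Hist1h1c, a linker histone, went from 10, 9.64 and 10.4 CPM to 920, 995 and 715 CPM (6.45, SE 0.16), and Hist1h2bc from 0.791, 0.899 and 1.21 CPM to 125, 127 and 137 CPM (7.06, SE 0.20). Hist1h3d had 0.0377, 0.0562 and 0.0543 CPM at Day 0 and 17.6, 15.4 and 15.6 CPM at Day 2. Replication-dependent histone transcripts usually end without a poly(A) tail, and DNA replication genes fell over the same days, as given above. The replacement histone H3f3b rose by 2.07 (SE 0.10), while H2afz, another variant, fell by 0.83 (SE 0.09).

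Splicing factors and hnRNP genes were mixed on the TMM scale, with 11 of 35 higher and 15 lower (median -0.09), while on library totals 5 were higher and 30 lower (median -1.52). Ptbp1, the polypyrimidine tract binding repressor, went from 324, 330 and 353 CPM to 80, 70 and 86.7 CPM (-2.09, SE 0.10), and its paralog Ptbp3 from 282, 250 and 279 CPM to 1440, 1390 and 1320 CPM (2.35, SE 0.11). The muscleblind genes Mbnl1 and Mbnl2 rose by 1.97 (SE 0.14) and 2.70 (SE 0.14). Rbm38, a regulator of late erythroid splicing, went from 30.7, 30.5 and 34.7 CPM to 602, 669 and 611 CPM (4.29, SE 0.20). Hnrnpf, Srsf7 and U2af1 fell by 1.73 (SE 0.08), 1.61 (SE 0.10) and 1.86 (SE 0.12).

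**Figure D2:**
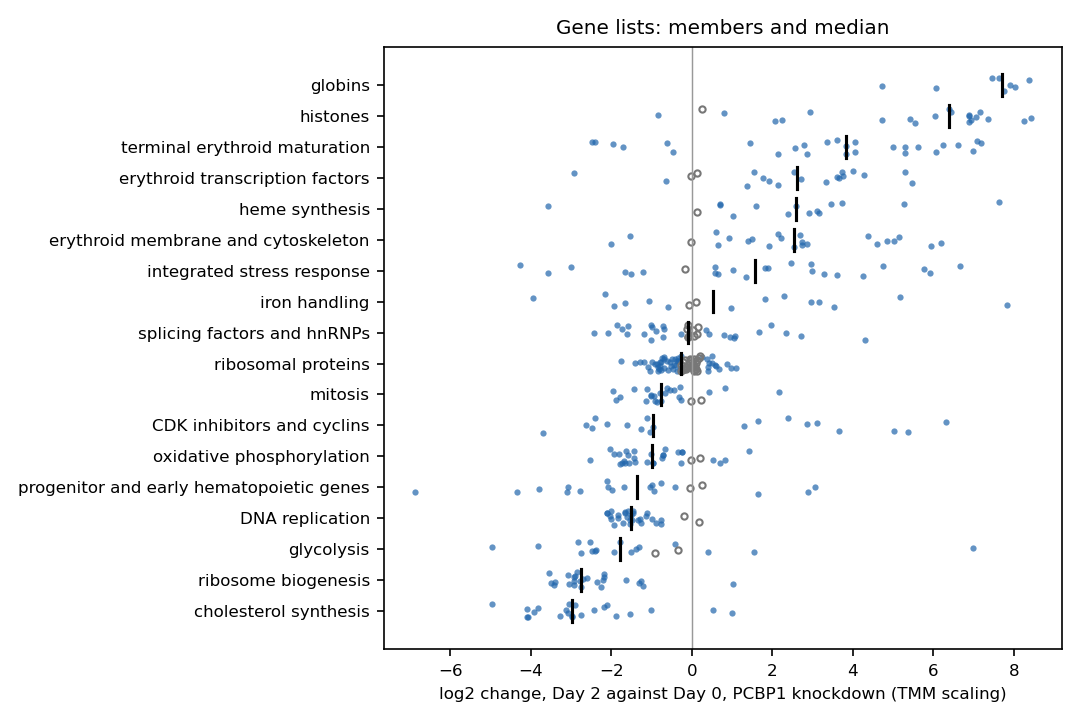
Log2 change between the days in the PCBP1 knockdown (TMM scale) for each tested member of 18 gene lists, ordered by the list's median (black bar), Rps12 not drawn; filled points passed an adjusted p under 0.05 in edgeR and open points did not. Globins (median 7.70), histones (6.40) and terminal erythroid maturation (3.83) lie highest and cholesterol synthesis (-2.98) and ribosome biogenesis (-2.76) lowest.

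The largest changes among well-expressed genes reached beyond the lists. Tmcc2, a transmembrane and coiled-coil protein gene, went from 23.2, 25.9 and 35.2 CPM to 20600, 19500 and 21100 CPM (9.50, SE 0.22). Ackr3, the atypical chemokine receptor CXCR7, went from 0.226, 0.0936 and 0.127 CPM to 227, 297 and 362 CPM, and Vgf, a secreted neuroendocrine peptide precursor, from 0.32, 0.169 and 0.217 CPM to 134, 182 and 298 CPM. Vgf was highest under hairpin 4 and lowest under hairpin 1, as were Ackr3 and Cpm, a carboxypeptidase. Others had few or no Day 0 reads, among them Tecta, Smtnl1, Apol11b, Hist1h2ac and the unnamed loci E330020D12Rik, D630024D03Rik, Gm18852 and Gm6786. Tecta, for instance, went from 0.151, 0.0749 and 0.0543 CPM to 56.3, 58.8 and 76.7 CPM. At the other end stood Kit and, beside Dhcr7, Hk2 and Fkbp5, Ak4, a mitochondrial adenylate kinase, from 67, 59.7 and 62.6 CPM to 0.946, 0.567 and 0.421 CPM (-6.61, SE 0.23). Prelid2, Gsta4, Sh2d4a, Rab4a, Bcat2, Ctsg and Elane fell by 4.95 to 6.77.

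Markers of other cell types were followed in the same libraries. Early granule proteins of granulocytes fell: Mpo (myeloperoxidase) went from 484, 490 and 563 CPM to 13.2, 25.2 and 25 CPM (-4.60, SE 0.18), and Elane and Ctsg fell with it. Late granule proteins rose: Ltf (lactoferrin) went from 7.82, 6.84 and 9.33 CPM to 216, 304 and 242 CPM (4.99, SE 0.18), with Camp and Ngp up by 3.71 (SE 0.15) and 2.98 (SE 0.18). In all, 6 of 14 granulocyte markers rose and 7 fell, and their summed level was 972 to 1030 CPM at Day 0 and 971 to 1400 CPM at Day 2. Of 14 macrophage and monocyte markers 4 rose and 9 fell, with Csf1r down by 1.21 (SE 0.17) and C1qb from 0.999, 1.76 and 1.63 CPM to 0.111, 0.113 and 0.0526 CPM. Their summed level was nonetheless higher at Day 2, at 269 to 354 CPM against 130 to 147 CPM at Day 0. On library totals 1 of these markers was higher and 11 were lower. C1qa had no read in the 3 Day 2 libraries. Of 11 mast cell, basophil and eosinophil markers 2 rose and 6 fell, Hdc by 2.26 (SE 0.15) and Ms4a2 by 2.80 (SE 0.23).

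Of 13 megakaryocyte markers, 11 rose and 1 fell on the TMM scale, with a median of 1.01 that turned to -0.42 on library totals. Itga2b, Tubb1 and Vwf rose by 2.41 (SE 0.10), 2.48 (SE 0.13) and 1.65 (SE 0.12), of which Vwf was at 0.22 and not called on library totals. Hepatocyte markers were low on both days, summing to 9.33 to 15.3 CPM at Day 0 and 2.83 to 4.05 CPM at Day 2, and 5 of 6 fell. Albumin (Alb) was at 0.678, 0.562 and 0.833 CPM at Day 0 and 0.167, 0 and 0.0526 CPM at Day 2. Endothelial and stromal markers, 4 of 6 of which rose, summed to 14.9 to 24.4 CPM and then 27.7 to 32.1 CPM, and on library totals none was higher and 2 were lower. The 9 lymphoid markers summed to 10.8 to 11.4 CPM at Day 0 and 53.6 to 84.2 CPM at Day 2, most of it Trdc. On the TMM scale 5 rose, among them Cd79a (6.29) and Il7r (3.62). Another 3 fell, among them Cd79b (-2.99) and Nkg7, by 3.27 (SE 0.32). On library totals 3 were higher and 4 lower, and the median change of 1.27 became -0.16. Whether other cells in the culture took part in any of the changes above was not tested.

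How far the change under PCBP1 knockdown differed from that of the controls was then examined as a difference of changes in the same model. Of the 14356 genes called in the knockdown, 13485 were called in the same direction in the controls, where 14507 were called. A further 11 were called in opposite directions. Without the LUC-1 libraries, 13313 were called in the same direction and 14 in opposite ones. The change itself differed from the controls in 68 genes at an adjusted p under 0.05, 24 with a more positive change in the knockdown (0.137% of tested genes) and 44 with a more negative one (0.251%), and 2318 genes had an unadjusted p under 0.05. With both LUC-1 libraries left out 33 genes were called, 25 of them among the 68. Of the 21 genes named below, 16 kept the call and Cluh (0.76), Tomm6 (0.81), Foxk1 (-0.78), Pyurf (-0.84) and Slc7a5 (-0.50) lost it. Leaving out any 1 Day 0 library of the knockdown or the controls gave 13 to 23 genes, leaving out the Day 2 library of hairpin 4 gave 45, of SCR-1 172 and of hairpin 3 205. On library totals 328 genes were called, 305 of them with a more positive change in the knockdown. On the TMM scale 33 of the 68 rose in both conditions but less in the knockdown, 13 fell in both but less, 7 rose more, 5 fell more and 10 had opposite signs. None of the 68 differed between knockdown and control at Day 0 at an adjusted p under 0.05, and all 68 did at Day 2. The 68 were chosen in the same fit by the Day 2 difference minus the Day 0 difference. That pattern is therefore largely set by the choice and is no separate result.

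**Figure D3:**
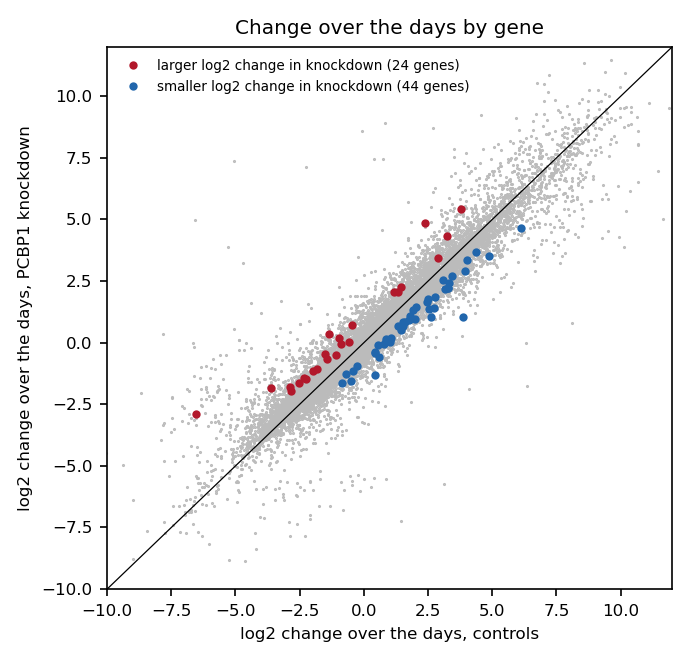
Log2 change between the days of each of the 17500 tested genes in the controls (horizontal) and in the PCBP1 knockdown (vertical), with the line of equal change. The 24 genes with a more positive change in the knockdown are red and the 44 with a more negative one blue; all other genes are grey.

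Among the genes with a more negative change were some that rose in the controls and did not rise in the knockdown. Urb2, a ribosome biogenesis factor, was at 57.4, 55.9 and 58 CPM under hairpins 1, 3 and 4 at Day 0 and at 41.5, 39.7 and 34 CPM at Day 2, whereas the controls (in the order SCR-1, SCR-2, LUC-1) went from 53.6, 54.1 and 49.7 CPM to 91.2, 73.6 and 73.1 CPM (difference of changes -1.17, SE 0.15, adjusted p = 0.00195, edgeR). Taf5l, a subunit of the PCAF histone acetylase complex whose start lies 111 bases from that of Urb2 on the opposite strand, was at 59.8, 62.7 and 70.3 CPM and then 67.5, 67.5 and 69.3 CPM in the knockdown, and at 61.5, 63.4 and 63.8 CPM and then 116, 111 and 117 CPM in the controls (-0.78, SE 0.12, adjusted p = 0.00812). Plod3, a lysyl hydroxylase, stayed between 17.6 and 19.8 CPM in all 6 knockdown libraries and reached 35.9, 38.9 and 38.4 CPM in the Day 2 controls (-0.82, SE 0.13). For these 3 genes the Day 2 levels of knockdown and control did not overlap.

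Others rose in both conditions but less in the knockdown. Mnt, a MAX-binding repressor of MYC targets, went from 18.9, 15.8 and 18.3 CPM to 74.4, 96.6 and 77.6 CPM in the knockdown and from 20, 20.2 and 18.2 CPM to 166, 188 and 207 CPM in the controls (-1.03, SE 0.16, adjusted p = 0.00545, edgeR). Sh3bp2, an adaptor protein of hematopoietic cells, reached 21.7, 21.4 and 22.1 CPM in the knockdown and 41.6, 45.4 and 57.6 CPM in the controls (-1.07, SE 0.18). Differences for Pyurf and 5031439G07Rik were of like size (-0.92, SE 0.17 and -1.03, SE 0.17). Slc7a5, the LAT1 amino acid transporter of the integrated stress response list, reached 500, 551 and 502 CPM in the knockdown and 817, 826 and 826 CPM in the controls (-0.58, SE 0.13, adjusted p = 0.0449), a call that held in 8 of 21 alternative analyses. Slc25a3, the mitochondrial phosphate carrier, fell in both conditions and further in the knockdown, from 331, 346 and 354 CPM to 169, 187 and 186 CPM (-0.64, SE 0.11). The lincRNA 2700038G22Rik and the forkhead gene Foxk1 had differences of -0.98 (SE 0.17) and -0.84 (SE 0.15). On library totals the changes in the knockdown itself were -0.46 for 5031439G07Rik and -0.09 for Slc7a5.

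On the positive side, Eid1, an inhibitor of the acetylases p300 and CBP, fell from 67.4, 77.7 and 70 CPM to 23.3, 18.5 and 19.4 CPM in the knockdown and to 10.4, 10.3 and 10.3 CPM in the controls, which had started at 77.5, 74 and 77.7 CPM (1.07, SE 0.15, adjusted p = 0.00403, edgeR). Tomm6, a subunit of the mitochondrial import pore, Cluh, an RNA-binding protein of mitochondrial mRNAs, Acaa2, a mitochondrial thiolase, and Dgkz, a diacylglycerol kinase, also fell less (0.88, 0.85, 0.92 and 0.80). Oxsm, the mitochondrial ketoacyl synthase, went from 11.2, 12.6 and 11.3 CPM to 15.8, 23.7 and 18 CPM in the knockdown and was at 8.02, 8.08 and 9.83 CPM in the Day 2 controls (1.18, SE 0.19). On library totals its change in the knockdown itself was -0.72. Galk2, a galactosamine kinase, and Slc26a2, a sulfate transporter, had differences of 1.16 (SE 0.21) and 0.81 (SE 0.14). Reps2, an endocytic adaptor, was at 20.4, 20.4 and 39.9 CPM in the Day 2 knockdown libraries, so that hairpin 4 was nearly apart from the others, against 5.78, 7.31 and 6.63 CPM in the controls (1.70, SE 0.26). Trdc, which encodes the constant region of the delta chain of the T cell receptor, reached 40.2, 32.4 and 59.2 CPM in the knockdown and 8.17, 9.19 and 4.83 CPM in the controls (2.48, SE 0.36). Of the lymphoid markers, Cd79a (6.29) and Il7r (3.62) also rose between the days in the knockdown, and Cd79b (-2.99) fell. Cd3d, which encodes a CD3 chain of the T cell receptor, was at a mean of 2.1 CPM in the knockdown at Day 0 and 2.25 CPM at Day 2.

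**Figure D4:**
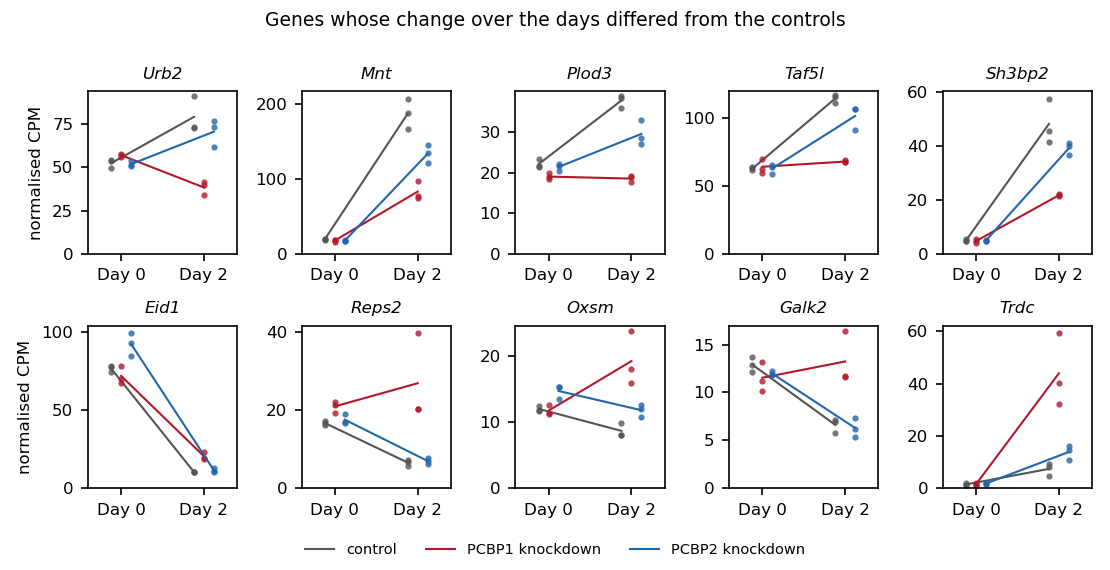
Normalised CPM of 10 genes whose change between the days differed from the controls, at Day 0 and Day 2, with a point for each library and a line through the group means of the controls (grey), the PCBP1 knockdown (red) and the PCBP2 knockdown (blue). In the upper row the Day 2 knockdown points lie below the controls, as in Urb2 with 34 to 41.5 CPM against 73.1 to 91.2 CPM, and in the lower row above them.

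No member of the erythroid lists was among the 68 genes. Even so, the difference of changes was negative for 18 of 20 erythroid transcription factors (median -0.21), 21 of 23 membrane and cytoskeleton genes (-0.28), 12 of 15 heme synthesis genes (-0.13) and 20 of 24 integrated stress response genes (-0.31), beside a median of 0.04 over all genes. It was positive for all 30 DNA replication genes (median 0.30) and for 24 of 25 mitosis genes (0.23). Without the LUC-1 libraries the shifts were smaller in most of these lists, with medians of -0.14 (17 of 20 negative), -0.13 (19 of 23), -0.03 (10 of 15) and -0.36 (18 of 24) in that order, 0.09 for DNA replication (28 of 30 positive), 0.16 for mitosis (23 of 25) and 0.02 over all genes. Of all their members only Slc7a5 passed the test, which it did not without those libraries, and on library totals the median was 0.00 for the erythroid transcription factors and turned to 0.07 for heme synthesis. Such shifts were not particular to these lists. The difference was positive for 31 of 32 oxidative phosphorylation genes (median 0.22) and 67 of 76 ribosomal protein genes (0.16). Without LUC-1 these counts were 29 (0.15) and 66 (0.14). It was negative for 20 of 27 genes of terminal erythroid maturation (-0.10), and for 16 without LUC-1 (-0.05). All these lists were chosen with earlier results of these data known, and the members of a list share their libraries.

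The change in the PCBP1 knockdown differed from that in the PCBP2 knockdown in 217 genes (1.24% of tested genes), more positive in 162 and more negative in 55, and 3010 genes had an unadjusted p under 0.05. The count was 1156 without the Day 2 library of PCBP1 hairpin 3 and 45 to 133 without any 1 of the other PCBP1 libraries or of the PCBP2 libraries other than hairpin 3 of Day 2. Pebp1, the Raf kinase inhibitor protein, went from 156, 140 and 140 CPM to 133, 135 and 149 CPM under PCBP1 knockdown, against 54.4, 49.5 and 52.6 CPM in the Day 2 PCBP2 libraries (difference of changes 1.38, SE 0.17, adjusted p = 0.000948, edgeR). Setdb1, a histone H3 lysine methylase, and Ints14, an integrator subunit, fell less under PCBP1 knockdown (0.85, SE 0.13 and 1.16, SE 0.18), and Rbl2, the pocket protein p130, had a more positive change (0.70, SE 0.12). Tspan31 and Twsg1 were more negative (-1.17, SE 0.19 and -1.27, SE 0.25). Urb2, Slc25a3, Pyurf and 2700038G22Rik were more negative, and Eid1, Reps2, Dgkz and Trdc more positive, than in the PCBP2 knockdown too. Of the 8 globins only Hba-a2 passed, at 5910, 10800 and 8110 CPM in the Day 2 PCBP1 libraries and 12300, 12700 and 13800 CPM in the PCBP2 libraries (-1.22, SE 0.24), and its reads are shared with Hba-a1.

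Splicing was read from the authors' deposited tables, which give for each junction of a local splicing variation (the set of junctions that leave or enter 1 exon) an expected share of use, E(PSI), over the pooled libraries of a group. These shares carry no error, depth or replicate, so they are described and not tested, and they are written in percent. Shares of the controls are pooled as well, so none could be given without LUC-1. The PCBP1 tables of both days held 82400 variations in common, in 7059 genes, with 442333 junction entries. Of these entries 5513 moved by 20 points or more between the days (1.25%), 2305 up and 3208 down, in 3317 variations of 1806 genes. In the controls 7089 entries moved as much. Of the moved entries 3949 moved in the same direction in both, which is 71.6% of those of the knockdown and 55.7% of those of the controls, and 2 moved in opposite directions.

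Among cassette exons, those that a junction can skip, more passed the threshold toward skipping than toward inclusion. The counts were made after the data were seen, requiring a move of 20 points for both the skipping and an including junction. Of 30778 measured exons, 729 were skipped more at Day 2 (2.37%) and 106 were included more (0.344%), and the controls had 862 and 130. An exon already close to full inclusion at Day 0 could not gain 20 points. The exons able to move each way were not counted, so these counts do not measure which direction was favoured. Among the exons annotated as coding over their full length, 78.6% of those included more (33 of 42) had a length divisible by 3, against 34.5% of those skipped more and 39.1% of all measured ones. That rule kept 42 of the 106 exons included more, against 632 of the 729 skipped more and 26468 of the 30778 measured. The shares therefore describe only the exons kept, and most of those included more were left out. Of the exons included more, 74 were also included more in the controls, and 509 of those skipped more were also skipped more in the controls.

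Genes of splicing proteins were among those with the largest moves. In Srsf3 an exon of 456 bases (GRCm38 chr17:29039454-29039909, plus strand) went from 5.1% to 85.8% inclusion (controls 5.8% to 87.2%), while the summed transcript level of the gene did not pass the test between the days. No annotated coding interval spans the whole of that exon, and whether part of it is coding was not examined. Exons not annotated as coding over their full length were also included more in Srsf2, Srsf6, Srsf7, Srsf11, Hnrnpd and Hnrnpl. The shares of skipping fell by 31.4, 30.3, 46.0, 45.8, 44.4 and 25.8 points in that order, genes chosen after their values were seen. A coding exon of Hnrnpa1 went the other way, from 0.2% to 54.7% skipped, and an exon of 74 bases in Rbm10 went from 3.7% to 69.3% skipped, 2 more genes chosen after their values were seen. In Rbm5 an exon of 74 bases went from 15.1% to 83.4% skipped (controls 10.2% to 75.9%).

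Tnrc6a, a scaffold of microRNA silencing complexes, and Mbnl1 gained exons whose lengths are divisible by 3. The Tnrc6a exon of 147 bases went from 3.0% to 89.1% inclusion (controls 1.3% to 93.4%). Other Tnrc6a exons went the other way. By the junctions that leave the exon before it, an exon of 88 bases went from 5.5% to 31.3% skipped (controls 2.7% to 21.7%). An exon of 33 bases went from 4.0% to 35.1% (controls 1.5% to 36.3%). The length of 88 bases is not divisible by 3. The Mbnl1 exon of 54 bases went from 29.1% to 59.5% (controls 33.9% to 74.2%). The Rbm5 exon of 74 bases, the Tnrc6a exon of 147 bases and the Mbnl1 exon are printed. They lie in genes of RNA-binding or RNA-silencing proteins, and their lengths show which of them keep the reading frame. Each is given from GENCODE M21 transcripts (GRCm38), 5′ to 3′, with the cassette exon in capitals and 20 bases of the neighbouring exon on each side in lower case.
Rbm5, skipped more, chr9:107759776-107759849, minus strand: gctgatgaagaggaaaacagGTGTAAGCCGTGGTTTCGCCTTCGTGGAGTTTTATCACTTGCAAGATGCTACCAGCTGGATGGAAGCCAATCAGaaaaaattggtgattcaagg
Tnrc6a, included more, chr7:123180249-123180395, plus strand: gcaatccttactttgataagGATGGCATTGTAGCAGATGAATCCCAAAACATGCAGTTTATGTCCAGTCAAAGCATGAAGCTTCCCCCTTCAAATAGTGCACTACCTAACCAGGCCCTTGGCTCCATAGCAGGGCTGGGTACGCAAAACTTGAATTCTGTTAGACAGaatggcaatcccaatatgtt
Mbnl1, included more, chr3:60614683-60614736, plus strand: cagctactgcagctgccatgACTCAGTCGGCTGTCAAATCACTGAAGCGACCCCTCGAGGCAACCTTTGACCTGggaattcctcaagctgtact

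Other genes changed the junction that joins a given exon. The largest losses among annotated junctions, of 86.8 to 93.0 points, were in Thada, Tlcd2, Pet112, Cenpv, Rcsd1, Vezt, Pibf1 and Rcl1, and in the controls the same junctions lost 71.6 to 89.0 points. Vezt, a cell junction gene, also held the largest gain, from 3.9% to 91.9% (controls 3.7% to 73.3%), and Usp14, Ankzf1 and Rnaseh2a gained 74.4, 69.8 and 68.5 points. Among the erythroid and RNA-binding protein genes on the splicing list, an annotated junction of Bcl2l1, which encodes BCL-XL, went from 38.1% to 76.2% (controls 39.7% to 76.8%). In Pcbp2 an unannotated junction rose from 1.1% to 38.8% (controls 0.7% to 39.5%). In Runx1 a pair of alternative junctions went from 68.8% to 44.9% and from 29.6% to 52.0% (controls 63.0% to 46.8% and 34.9% to 47.8%). An Ank1 junction lost 21.3 points, and no entry of Alas2, Add1, Add2, Fech, Mbnl2 or Slc25a37 moved by 20 points.

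**Figure D5:**
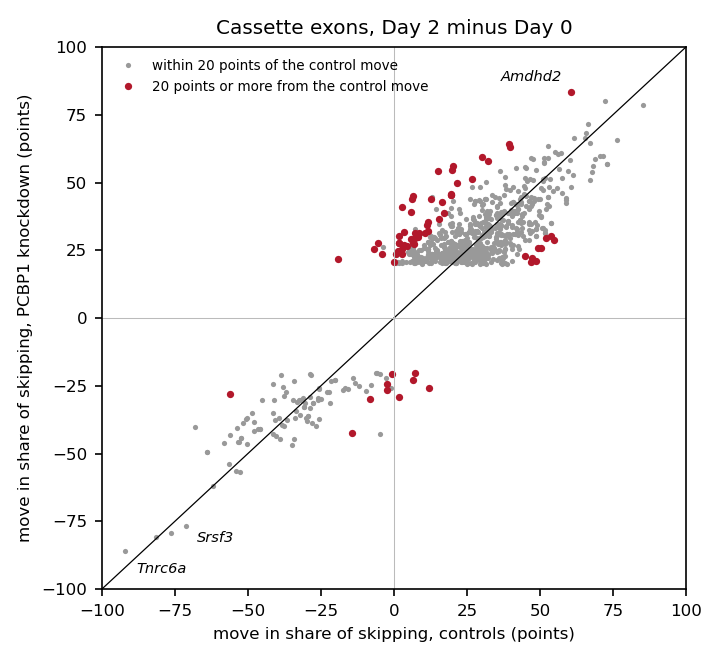
Move in the share of skipping between the days, Day 2 minus Day 0 in percentage points, for the 835 cassette exons that moved in the PCBP1 knockdown (vertical), against the move of the same exon in the controls (horizontal), from the authors' pooled E(PSI). Most points lie near the line of equal moves, with Amdhd2 at the skipped end and Tnrc6a and Srsf3 at the included end; red points differ from the control by 20 points or more.

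Splicing moves that differed between the knockdown and the controls were fewer. Of all junction entries, 1603 moved by an amount that differed by 20 points or more from that of the controls (0.362%). For knockdown against control within a day, the authors also give a probability of a difference of 20 points or more. It was at least 0.95 for 33 entries at Day 0 and 183 at Day 2. Of the 5513 entries that moved between the days, 83 reached it at Day 2. No such probability covers the moves between the days. Skipping moved up by at least 20 points more than in the controls in 80 exons, and less by as much in 89. A coding exon of 119 bases in Usp19, a deubiquitinase, went from 2.0% to 41.3% skipped while that of the controls moved by 5.7 points. An exon of 104 bases in Ctns, the lysosomal cystine exporter, went from 6.3% to 50.1% (controls 6.3 points), an exon of 151 bases in Got1, the cytosolic aspartate aminotransferase, from 7.1% to 61.6% (controls 20 points) and an exon of 74 bases in Tsc1, the hamartin gene, from 0.3% to 32% (controls 3.4 points). These 4 were chosen after their values were seen.

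Retained introns seldom moved by 20 points. Of 16101 intron entries 11 moved by 20 points or more (0.0683%), 7 up and 4 down, against 6 up and none down in the controls. The largest gain was in Ftsj3, a ribosomal RNA methyltransferase gene, whose intron at chr11:106255425-106255585 (minus strand) went from 0.1% to 28.9% in the knockdown and from 0.1% to 0.9% in the controls. Introns of Cog1, Acbd3, Map3k3, Wrap73, Gnl1 and Pes1 gained 26.2, 23.0, 22.6, 22.2, 21.1 and 20 points, against 3.9, 3.8, 0.3, 0.5, 1.3 and 0.3 points in the controls, genes chosen after their values were seen. The authors' probability of a difference of 20 points or more from the controls at Day 2 was 0.69 for the Ftsj3 intron. For Cog1, Acbd3, Wrap73, Gnl1 and Pes1 it was 0.178 to 0.353. Among 2479 introns seen from both neighbouring exons, none rose or fell by 20 points on both sides. Over all intron entries the median share was 0.1% at Day 0 and 0.2% at Day 2 in both conditions, and the median move was 0.1 points. At such low shares most introns could not fall by 20 points, so the count does not measure how stable their retention was.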

How the data were processed

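RNA was measured by sequencing in 18 libraries, of which the 6 of the PCBP1 knockdown are described and the others serve for comparison. The deposited tables hold estimated counts per transcript (the authors' Salmon NumReads, which need not be whole), and the submitters' processing notes name FastQC 0.11.9, Trim Galore 1.46.0, STAR 2.5.3a, SAMtools 1.9, Salmon 0.11.3 and the build GRCm38. The authors' splicing tables give E(PSI), a fraction between 0 and 1, per junction over the pooled libraries of a group. The splicing tool and the strand setting of the counting are not given in the sources used here.

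Counts were summed to GENCODE M21 genes by transcript identifier, with 110403 of 111706 transcripts matched. The reads on unmatched transcripts were 0.485% to 0.551% of a PCBP1 library at Day 0 and 0.275% to 0.312% at Day 2, and they were left out. The sums were rounded to whole numbers and genes filtered by edgeR's filterByExpr, which kept 17500 of 46167. edgeR 4.0.16 (R 4.3.3, limma 3.58.1) fitted its quasi-likelihood model with 6 group means, TMM scaling and 12 residual degrees of freedom, with Benjamini-Hochberg adjustment over all tested genes and a threshold of 0.05. The change in one condition was set against that in another as a contrast of this model. Alternatives were DESeq2 1.42.0, its size factors, library totals, scaling without globins, no filter, a replicate block, fewer libraries and leaving out each library in turn. Tables and figures were made with Python 3.11.15, pandas 2.3.3 and matplotlib 3.10.9.

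E(PSI) was multiplied by 100 and compared between days for junctions of variations present in both PCBP1 tables, with a threshold of 20 points and no test. Promoters came from RefSeq (GRCm38.p6) and exons from the GENCODE M21 transcripts. The gene lists and the comparison were chosen with earlier results of these data known. Named genes were the PCBP family, all globins, up to 12 genes each way with the largest change (average log2 CPM of at least 4, no overlap), up to 4 members each way per list with those against the list's direction, and up to 10 genes each way per contrast of changes (average log2 CPM of at least 3) with called list members. For splicing they were up to 8 genes each way and a list of genes. A few genes that the rule names are not reported here.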

Additional observations from a re-analysis of the deposited data

Results flagged for a closer look

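Each gene given here had a change between the days that differed from that of another condition by edgeR's test of the difference of changes, at an adjusted p under 0.05. Against the controls, the difference on the log2 scale was positive for Trdc (2.48), Reps2 (1.70), Oxsm (1.18), Galk2 (1.16), Eid1 (1.07), Acaa2 (0.92), Tomm6 (0.88), Cluh (0.85), Slc26a2 (0.81) and Dgkz (0.80). It was negative for Urb2 (-1.17), Sh3bp2 (-1.07), Mnt (-1.03), 5031439G07Rik (-1.03), 2700038G22Rik (-0.98), Pyurf (-0.92), Foxk1 (-0.84), Plod3 (-0.82), Taf5l (-0.78), Slc25a3 (-0.64) and Slc7a5 (-0.58). Of these, Urb2, Mnt, Plod3, Taf5l, Sh3bp2, 5031439G07Rik, Acaa2, Eid1, Oxsm, Reps2 and Trdc were called under all 21 alternatives.

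Against the PCBP2 knockdown, the difference was positive for Reps2 (1.69), Pebp1 (1.38), Eid1 (1.19), Ints14 (1.16), Dgkz (0.89) and Setdb1 (0.85). It was negative for Twsg1 (-1.27), Tspan31 (-1.17), Urb2 (-1.02), 2700038G22Rik (-0.99), Pyurf (-0.88) and Slc25a3 (-0.67). Among list members, the difference was positive for 1 of 30 DNA replication genes, Rfc3 (0.83), 3 of 25 mitosis genes, Ttk (0.85), Aurkb (0.75) and Aurka (0.57), and 2 of 19 CDK inhibitors, cyclins and partners, E2f1 (0.76) and Rbl2 (0.70), beside 1.24% of all tested genes called. It was also positive for the glycolysis genes Eno1 (0.95) and Hk1 (0.56) and the marker genes Il7r (2.10), Trdc (1.9) and Tubb1 (0.77). Rbl2 and Trdc were called under all 20 alternatives, while the other 9 were called in 6 to 9 of them. The endothelial receptor Kdr (-1.44), the stress-responsive factor Nfe2l1 (-0.60) and the globin Hba-a2 (-1.22) were more negative, called in 10, 11 and 18 of the 20 alternatives. For Rps12 the fitted difference was 16.61, but its reads are spread unevenly over libraries, so that value is not a size of effect.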

How the results depend on the processing

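Day 2 against Day 0 stayed within 1.5 times the main count under every alternative run, with 14110 to 14294 genes with 1 library left out (4-fold: 6745 to 7140). The contrasts of changes did not. Against the controls (68 genes) and the PCBP2 knockdown (217), DESeq2 called 598 and 1190, library totals 328 (93% higher, against 35.3%) and 120, and no filter 505 and 734. Leaving out 1 library gave 13 to 205 and 45 to 1156. Alternatives chosen after seeing the data gave 33 against the controls without LUC-1, 700 against the PCBP2 knockdown without PCBP1 hairpin 3 and 356 with a GC trend removed. The cause of these shifts was not tested.

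The labels do not say whether a hairpin number marks 1 culture over both days, so the main fit did not treat same-numbered libraries as pairs. A block for the number was run as an alternative. Same-numbered PCBP1 libraries of the 2 days correlated at -0.005, 0.072 and 0.138. Each correlated best with its own number only for hairpins 3 and 4, whereas all 3 PCBP2 hairpins did so (0.084, 0.173 and 0.135). With a replicate block over 18 libraries, 14131 genes were called between the days (6753 at 4-fold), 70 against the controls (44 of them among the 68) and 136 against the PCBP2 knockdown (106 among the 217). In the 6 libraries alone 13351 were called, and 13194 with the replicate block.

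Of 2368 alternative values for 158 named genes, 2349 kept direction and call. Under library totals 6 of these genes changed sign, Gapdh (-1.02), Insig1 (-0.44), Mki67 (-0.60), Nusap1 (-0.99), Pcbp1 (-1.22) and Ubtf (-0.41). Genes named only for a contrast of changes are outside that count. Among them the knockdown's own change also turned negative on library totals for Oxsm (-0.72), Reps2 (-1.06), Galk2 (-1.23), Taf5l (-1.34), 2700038G22Rik (-1.38), 5031439G07Rik (-0.46), Rbl2 (-0.14), Slc7a5 (-0.09) and Twsg1 (-0.08). Junction entries that moved were 16298 at 10 points and 2326 at 30 points, or 3317 with 1 junction per variation. E(PSI) carries no depth, so the precision of splicing values is unknown.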

Other observations

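On the TMM scale, transcript classes other than protein-coding genes rose more often at 4-fold, in counts made after the data were seen. Their median changes were 1.67 (lincRNA), 1.66 (antisense), 1.82 (unclassified loci) and 0.26 (processed pseudogenes), against -0.42 for protein-coding genes. The classes were not counted on library totals, where the median of all genes was -1.47 against -0.04. A gene could also pass the filter on counts through its Day 2 libraries alone. A rise of that size was found for 318 of 727 lincRNA genes (43.7%), 314 of 719 antisense genes (43.7%), 359 of 834 loci still to be experimentally classified (43%) and 172 of 629 processed pseudogenes (27.3%), against 2448 of 13589 protein-coding genes (18%), of which 18.4% fell as much. The strand setting of the counting is not stated, so reads of an antisense gene and of its partner cannot be told apart here.

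Among the 68 genes whose change differed from the controls, 8 pairs had starts within 200 kb of each other, and the number to be found by chance was not tested. Taf5l and Urb2, 111 bases apart on opposite strands, were both more negative (-0.78 and -1.17), as were Pyurf and Lancl2 (-0.92 and -0.71) and Brd1 and Zbed4 (-0.85 and -0.92). Eid1 and Galk2, 186 kb apart, were both more positive (1.07 and 1.16). Cluh and Mnt, 181 kb apart, had opposite signs (0.85 and -1.03).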
